A study of Mus musculus with 4 samples.

Results

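The circadian clock genes Arntl, Clock, Per1, Per2, Cry1, Cry2, Nr1d1 and Nr1d2 and the clock outputs Dbp and Tef were described in the pressure-loaded mouse left ventricle. All probe sets whose platform symbol was 1 of these 10 genes were taken, which gave 16 probe sets, out of 12393 genes with a probe set of their own. The 4 groups were each measured on 1 array of biotin-labelled total RNA: IL-18 null banded, IL-18 null sham, wild-type banded and wild-type sham. Banding is transaortic constriction, a surgical narrowing of the aorta that overloads the ventricle with pressure, and sham animals had the operation without it. The IL-18 null banded pool held RNA of 6 mice banded for 1 week, on a C57BL/6 background. The IL-18 null sham pool held RNA of 5 mice, and the pool sizes of the wild-type arrays are given only as 5 to 6 by the series. The banding time and background strain of the wild-type mice, the age of any mouse and the time of day at which hearts were taken are not given in the sources used here. The series asks what the cytokine IL-18 does to gene expression in hypertrophy. Each group is 1 pool on 1 array, so no difference below has a replicate check, an error or a test.

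In mammals the clock is a feedback loop of transcription. Arntl (also called Bmal1) and Clock encode partner proteins that bind DNA elements called E-boxes and switch on the Per, Cry and Nr1d genes and the outputs Dbp and Tef. The Per and Cry proteins then repress Arntl and Clock activity, and the Nr1d receptors (REV-ERBs) repress transcription of Arntl, so Arntl transcripts peak when Dbp and Nr1d1 transcripts are low. Cardiomyocytes carry such a clock of their own, and Dbp and Nr1d1 are among the transcripts of the heart with the widest daily swing. A level of these transcripts therefore depends on the hour at which the tissue was taken.

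The sequences just upstream of 4 measured genes are given with letter matches to elements through which the loop acts, where found. No binding was measured in these sequences. They are from RefSeq (GRCm38.p6), and 9 of the 10 genes had 14 windows of 300 bases around their transcription starts. Each is printed 5′ to 3′ from 250 bases before the start to the last base outside the annotated gene, in lower case, with motif matches in capitals.
Cry2 upstream sequence, chr2:92434086-92434319, minus strand: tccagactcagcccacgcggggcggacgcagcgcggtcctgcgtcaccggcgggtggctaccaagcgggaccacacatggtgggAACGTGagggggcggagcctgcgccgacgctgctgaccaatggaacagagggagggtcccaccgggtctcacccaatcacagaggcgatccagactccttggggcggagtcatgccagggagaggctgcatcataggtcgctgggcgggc
Nr1d2 upstream sequence, chr14:18239107-18239356, minus strand: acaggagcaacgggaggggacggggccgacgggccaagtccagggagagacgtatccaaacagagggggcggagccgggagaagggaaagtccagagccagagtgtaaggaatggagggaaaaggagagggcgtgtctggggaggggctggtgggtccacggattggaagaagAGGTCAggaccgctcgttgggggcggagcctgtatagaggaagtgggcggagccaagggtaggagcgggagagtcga
Dbp upstream sequence, chr7:45704997-45705099, plus strand: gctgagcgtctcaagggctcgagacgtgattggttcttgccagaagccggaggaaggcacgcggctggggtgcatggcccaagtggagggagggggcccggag
Tef upstream sequence, chr15:81802423-81802672, plus strand: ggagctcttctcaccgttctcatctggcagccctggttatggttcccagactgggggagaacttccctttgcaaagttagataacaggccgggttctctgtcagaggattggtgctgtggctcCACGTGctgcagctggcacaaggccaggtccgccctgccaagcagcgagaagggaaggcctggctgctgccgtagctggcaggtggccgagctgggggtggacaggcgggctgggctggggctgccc
The motifs searched on both strands were the E-box CACGTG, its variant CACGTT, which reads AACGTG on the other strand, the D-box TTATGTAA, which reads TTACATAA on the other strand and which Dbp and Tef proteins bind, and AGGTCA, which reads TGACCT on the other strand, the core of the element that REV-ERBs bind. None of these motifs overlaps another in the printed sequences. The Tef sequence held 1 E-box at -127 from the start, and a second Tef window held 1 at -138. The Cry2 sequence held 1 variant E-box at -166, and the Nr1d2 sequence 1 match of AGGTCA at -77. The 300-base Dbp window held no match, which says only that these letters are not in it. Among the other members, E-boxes stood at -166 in 1 Per1 window and at -60 in the Cry1 window. Over all 32851 such windows, 7.15% held the E-box, 4.68% its variant, 0.938% the D-box and 16.3% AGGTCA. Of the 14 windows of the members, 4 held the E-box, 3 the variant, 0 the D-box and 4 AGGTCA.

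The values are intensities on a linear scale, and 64 (log2 6) was taken as the floor below which a value was not read as a level. Differences are log2 differences after values below the floor were set to it, so a difference with 1 array below the floor is a bound, and at least 2-fold means a log2 difference of at least 1 either way. By this floor 7 of the 16 probe sets were measured on at least 1 array and 5 on all 4. They belong to 5 genes: Clock, Cry2, Nr1d2, Dbp and Tef. The other 9 probe sets lay below it on every array, at 3.7 to 52.6.

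**Figure D1:**
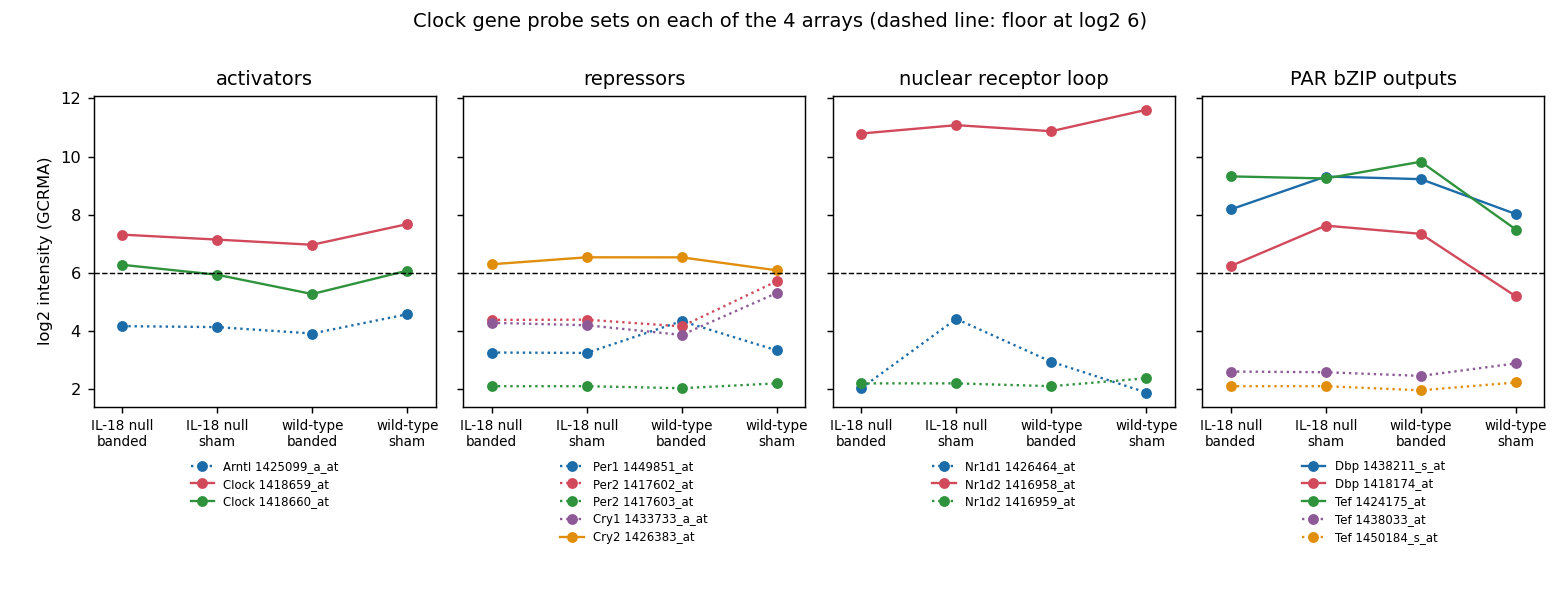
Log2 intensity (y axis) of each of the 16 probe sets on the 4 arrays (x axis), in 4 panels by role. Lines join the values of 1 probe set, solid where it reached the floor (dashed, log2 6) on at least 1 array and dotted where it did not. Dbp was high in IL-18 null sham and wild-type banded by both probe sets, while Nr1d2 was highest in wild-type sham.

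The wild-type sham array stood apart from the others before any clock gene was considered. Across 5158 genes its log2 intensities correlated at 0.70 to 0.83 with the other arrays, which correlated at 0.90 to 0.94 among themselves (Pearson's r across genes, without the floor). How far signal was skewed to the 3′ ends of transcripts was measured as the log2 signal at the 3′ end minus that in the middle, averaged over dap (a bacterial control), Gapdh and Actb. This index of 3′ bias was 3.01 ± 1.47 in IL-18 null banded and 3.37 ± 1.14 in IL-18 null sham. It was 0.72 ± 1.14 in wild-type banded and 4.74 ± 0.14 in wild-type sham (SD over 3 transcripts). The IL-18 null banding comparison sets arrays of close index against each other, while the genotype comparison in banded hearts, which like it does not use the wild-type sham array, sets 3.01 against 0.72. The part of this gap in its differences was not tested. Il18, the deleted gene, had intensities of 8.4 in IL-18 null banded, 8.2 in IL-18 null sham, 7.4 in wild-type banded and 9.1 in wild-type sham, all below the floor, so it does not check the genotype labels. All 8 ventricular cardiomyocyte markers were at or above the floor on every array and the 3 hepatocyte markers on none. The 3 atrial markers were at or above it on every array. Their summed intensity was 2097 in IL-18 null banded, 1765 in IL-18 null sham, 3919 in wild-type banded and 1552 in wild-type sham. The cause of this spread was not tested.

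Among the activators, Clock was measured and Arntl was not. The brighter Clock probe set (1418659_at) had an intensity of 159.5 in IL-18 null banded, 141.7 in IL-18 null sham, 125.3 in wild-type banded and 205.0 in wild-type sham. Wild-type sham was the highest of the 4 arrays, and all values lay within 2-fold of each other. The banding difference was 0.17 in IL-18 null and -0.71 in wild type, and IL-18 null minus wild type was 0.35 in banded and -0.53 in sham hearts. The other Clock probe set (1418660_at) read 77.7, 61.3, 38.7 and 67.6 in IL-18 null banded, IL-18 null sham, wild-type banded and wild-type sham, near or below the floor. Arntl (1425099_a_at) read 18.0 in IL-18 null banded, 17.6 in IL-18 null sham, 15.1 in wild-type banded and 23.9 in wild-type sham. All 4 Arntl values lay below the floor, so the data give no Arntl level to set against the outputs it drives.

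Of the repressors only Cry2 was measured. Cry2 (1426383_at), a cryptochrome that blocks the activators, had intensities of 78.7 in IL-18 null banded, 92.9 in IL-18 null sham, 92.8 in wild-type banded and 68.1 in wild-type sham. Its values ran in the same order as those of the brighter Dbp probe set, highest in IL-18 null sham and wild-type banded, but the range was small and close to the floor. The banding difference was -0.24 in IL-18 null and 0.45 in wild type, both within 2-fold. After quantile normalization the wild-type value was -0.16, so the order shared with Dbp was not kept. Cry1 (1433733_a_at) read 19.5 in IL-18 null banded, 18.4 in IL-18 null sham, 14.6 in wild-type banded and 39.7 in wild-type sham. Per2, a period gene that binds the cryptochromes, read 20.9, 21.0, 17.9 and 52.6 by its brighter probe set (1417602_at), in the order IL-18 null banded, IL-18 null sham, wild-type banded and wild-type sham. Its other probe set (1417603_at) lay between 4.1 and 4.6. For both genes wild-type sham gave the highest of 4 values that were all below the floor, as it did for Arntl. The median intensity over all probe sets was also highest on that array, at 13.7 against 11.3 to 11.6 on the others. Per1 (1449851_at), whose transcription also responds to glucocorticoids and to cyclic AMP, read 9.6 in IL-18 null banded, 9.5 in IL-18 null sham, 20.3 in wild-type banded and 10.1 in wild-type sham. No fold is given for Cry1, Per1 or Per2.

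Nr1d2, which encodes REV-ERB-beta, was within 2-fold in all comparisons of the deposited values. After quantile normalization it was past 2-fold in wild-type banding, at -1.05. Its measured probe set (1416958_at) had intensities of 1777.0 in IL-18 null banded, 2169.4 in IL-18 null sham, 1877.7 in wild-type banded and 3127.3 in wild-type sham. The banded array was the lower of the pair in both genotypes, by a log2 difference of -0.29 in IL-18 null and -0.74 in wild type. Differences at least as far below 0 were found for 21% of 6743 probe sets in IL-18 null banding and for 19.8% of 7200 in wild-type banding. Another Nr1d2 probe set (1416959_at) lay between 4.3 and 5.2 and gave no level. Nr1d1, which encodes REV-ERB-alpha, read 4.1 in IL-18 null banded, 21.4 in IL-18 null sham, 7.7 in wild-type banded and 3.7 in wild-type sham (1426464_at). Its highest and next highest arrays were IL-18 null sham and wild-type banded, as for the brighter Dbp probe set, but every value lay below the floor and no fold is given.

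Dbp, the D-box-binding protein that carries clock output to metabolic genes, was lower in banded than in sham hearts of IL-18 null mice and higher in banded than in sham hearts of wild-type mice. The brighter probe set (1438211_s_at) had intensities of 291.0 in IL-18 null banded, 637.5 in IL-18 null sham, 598.9 in wild-type banded and 260.3 in wild-type sham. The other probe set (1418174_at) read 75.5, 197.8, 162.5 and 36.6 on the same arrays in the same order. Both probe sets placed IL-18 null sham and wild-type banded high and IL-18 null banded and wild-type sham low.

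In IL-18 null hearts the Dbp banding difference was -1.13 by the brighter and -1.39 by the other probe set, or 2.19-fold and 2.62-fold lower in banded. Of 6743 probe sets in that comparison, 3.32% and 1.96% were at least as far below 0. In wild-type hearts it was 1.20, and at least 1.34 by the probe set that lay below the floor in sham, or 2.3-fold and at least 2.54-fold higher in banded. Of 7200 probe sets there, 21.8% and 19.8% were at least as far above 0, so differences of this size were common between the wild-type arrays. After quantile normalization the wild-type value of the brighter probe set was 0.82, no longer 2-fold. Between genotypes Dbp was -1.04 and -1.11 in banded and 1.29 and at least 1.63 in sham hearts, IL-18 null minus wild type; after quantile normalization the banded value of the dimmer probe set was -0.94. The difference of the banding responses, IL-18 null minus wild type, was -2.33 by the brighter probe set, and 10.6% of 7366 probe sets were at least as far below 0. With a floor of log2 7 in place of 6, the dimmer probe set lay below the floor in IL-18 null banded and wild-type sham, and its bounds were under 2-fold in all comparisons.

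Tef, a relative of Dbp that binds the same D-box element, was low on a single array. Its measured probe set (1424175_at) had intensities of 639.6 in IL-18 null banded, 608.5 in IL-18 null sham, 907.2 in wild-type banded and 180.2 in wild-type sham. The wild-type sham value was the low one, and the other 3 arrays lay within 2-fold of each other. The banding difference was 0.07 in IL-18 null and 2.33 in wild type, and IL-18 null minus wild type was -0.50 in banded and 1.76 in sham hearts. Both differences over 2-fold take wild-type sham as their baseline, where the 3′ bias index was highest, and the part of that bias in them was not tested. The other Tef probe sets (1438033_at and 1450184_s_at) lay between 3.9 and 7.4 on all arrays and gave no level.

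**Figure D2:**
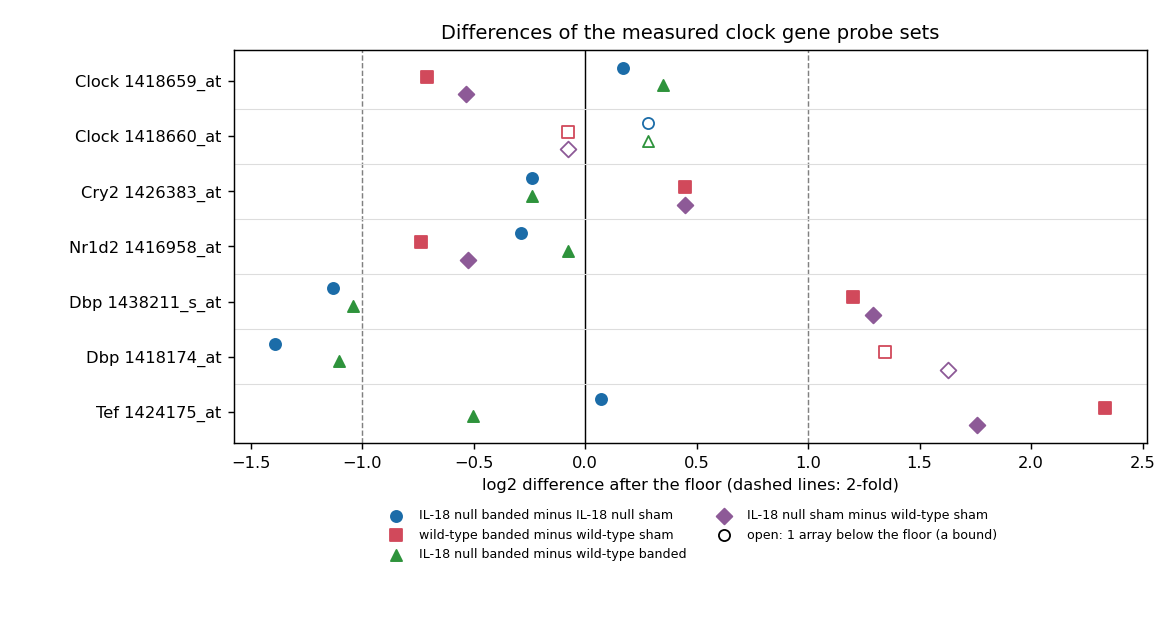
Log2 differences (x axis) of the 7 measured probe sets (rows) in the 4 comparisons, with 2-fold marked by dashed lines and bounds drawn open. Both Dbp probe sets lie past 2-fold in all 4 comparisons. They are lower in IL-18 null banded against both IL-18 null sham and wild-type banded, and higher in IL-18 null sham and in wild-type banded against wild-type sham. Without further normalization, as drawn here, the values of Clock, Cry2 and Nr1d2 stay within 2-fold. Those of Clock 1418660_at are all bounds, and without the floor its IL-18 null banded minus wild-type banded difference was 1.01.

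Counted over probe sets, wild-type banding had 3 of the 7 measured probe sets at least 2-fold higher (both of Dbp and 1 of Tef) and 0 lower, where 24.9% of all probe sets were higher and 11.5% lower. IL-18 null banding had 0 higher and 2 lower, both of Dbp, where 6.64% were higher and 4.2% lower. Between genotypes, sham hearts had 3 higher and 0 lower in IL-18 null (18.4% and 6.02% of all), and banded hearts 0 higher and 2 lower (5.11% and 10.9%). The difference of responses had 0 higher and 3 lower, against 18.8% and 24.9%. These called probe sets come from only 2 genes, and the 2 Dbp probe sets are annotated to the same gene. The median difference of the 7 was 0.45 in wild-type banding and -0.24 in IL-18 null banding, against -0.02 and 0.06 over all probe sets. The banding comparison of a genotype and the genotype comparison of a surgery always share 1 array, while the banding comparisons have none in common and neither do the genotype comparisons.

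The scaling of the arrays moved the background itself. In wild-type banding 1792 probe sets were higher and 828 lower; quantile normalization gave 1439 higher and 1674 lower and moved the median of all from -0.02 to -0.34, while cyclic loess gave 2029 and 544 (median 0.16). In IL-18 null banding it was 448 and 283, and 353 and 340 after quantile normalization. Between sham hearts it was 1249 and 409, and 1069 and 855 after quantile normalization (median -0.05 moved to -0.26). Between banded hearts it was 360 and 768, and 246 and 929 after cyclic loess (median 0.06 moved to -0.10). For the difference of responses it was 1388 and 1832, while quantile normalization gave 1959 and 1577, and cyclic loess 934 and 2129. The direction of each Dbp difference was the same under each of these scalings, and so was that of Tef in wild-type banding and between sham hearts.

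**Figure D3:**
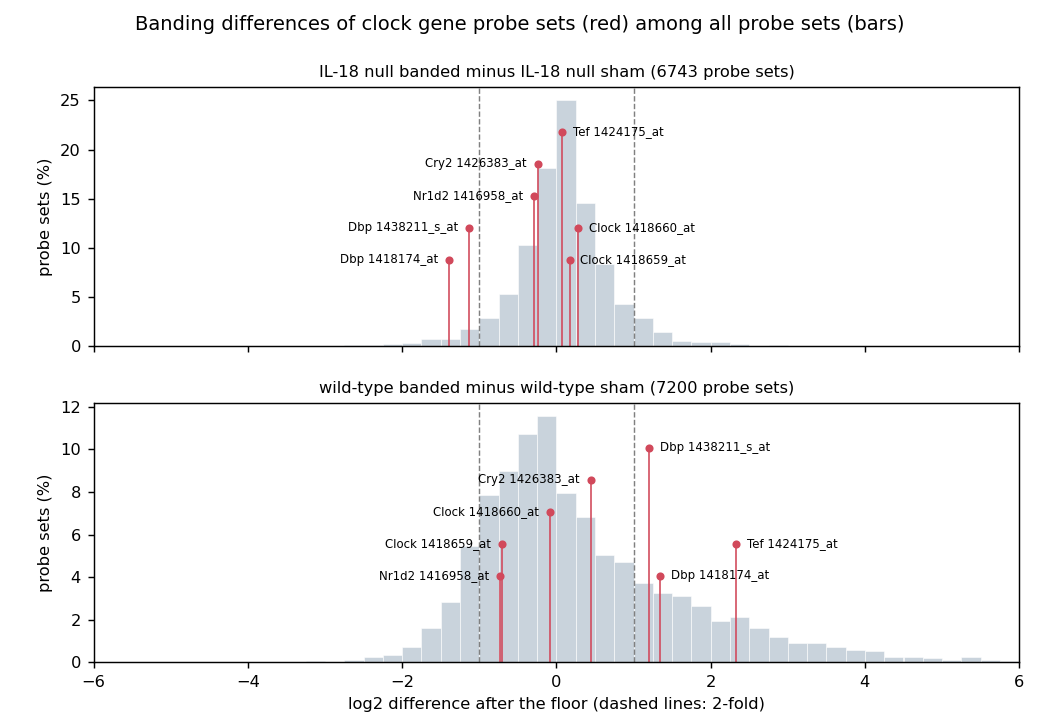
Histograms of the log2 banding difference (x axis, bins of 0.25) of all probe sets in IL-18 null (upper) and wild type (lower) as a percentage of probe sets (y axis), with the 7 measured clock probe sets in red. The height of a red stem carries no value. Both Dbp probe sets lie in the narrow lower tail in IL-18 null and inside the broad upper side in wild type.

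A wider list of 42 genes held other clock regulators and genes known to be clock-controlled in heart or other tissues. Of these 36 were on the array and 23 reached the floor on at least 1 array, each taken by its brightest probe set. Further core genes, among them Npas2 (a partner of Arntl), Per3, Hlf (a close relative of Dbp and Tef), Nfil3 (a repressor at D-boxes) and Bhlhe41, lay below the floor on all 4 arrays. IL-18 null banding had 5 of 23 genes at least 2-fold higher and 2 lower, where 6.98% and 2.53% of all genes were, with a median of -0.07 against 0.08 over all genes. Wild-type banding had 4 of 21 higher and 3 lower, where 21.7% and 12.8% of all genes were, with a median of -0.22 against -0.08. Between sham hearts 2 of 21 were higher and 2 lower in IL-18 null (16.3% and 6.29% of all genes), and between banded hearts 5 of 23 were higher and 3 lower (5.7% and 7.74%).

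Usp2, a deubiquitinase gene that follows the clock in many tissues and acts on clock proteins, ran like Dbp. Its brightest probe set (1417168_a_at) had intensities of 410.2 in IL-18 null banded, 850.0 in IL-18 null sham, 937.3 in wild-type banded and 466.7 in wild-type sham. IL-18 null sham and wild-type banded were again the high arrays, with banding differences of -1.05 in IL-18 null and 1.01 in wild type. Its other probe set (1417169_at) had the same signs within 2-fold, at -0.52 and 0.17. Tsc22d3, a glucocorticoid-induced leucine zipper gene with a daily rhythm, was -0.74 in IL-18 null and 0.42 in wild-type banding by its brightest probe set, and -1.27 in IL-18 null against wild type in banded hearts. A second Tsc22d3 probe set had -1.62 and 2.85, both bounds, and the remaining one (1425557_x_at) had the opposite signs at 0.25 and -0.33. Dgat2, which makes triglyceride, was -0.77 in IL-18 null and 2.23 in wild-type banding, and -0.93 and 3.43 by its other probe set (1422677_at).

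Bhlhe40, which encodes a repressor that competes at E-boxes, was high in IL-18 null banded, at 662.2, against 136.9 in IL-18 null sham, and read 236.6 in wild-type banded and 147.9 in wild-type sham. Its banding difference was 2.27 in IL-18 null and 0.68 in wild type, so the banded array was the higher of the pair in both genotypes. Klf10, a clock-controlled transcription factor gene that also responds to TGF-beta, went opposite ways. It read 347.6 in IL-18 null banded, 82.1 in IL-18 null sham, 79.2 in wild-type banded and 216.4 in wild-type sham, for banding differences of 2.08 and -1.45. Klf10 was thus high where Dbp was low on all 4 arrays.

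Cdkn1a, the cell-cycle inhibitor p21, had banding differences of at least 2.28 in IL-18 null and 1.58 in wild type. Tspo, a protein of the outer mitochondrial membrane, had 2.05 and -0.08 by its brightest probe set. Another Tspo probe set (1416695_at) had at least 1.27 and at least 1.58, and the remaining one (1456251_x_at) at least 1.54 and -0.07. Timeless, a replication-fork gene related to a fly clock gene, had 1.04 and -0.37. Sirt1, a deacetylase reported to act on clock proteins, read 195.3 in IL-18 null banded, 243.2 in IL-18 null sham, 123.8 in wild-type banded and 788.4 in wild-type sham, which gave -0.32 in IL-18 null and -2.67 in wild-type banding. Csnk1d, a kinase that marks Per proteins for breakdown, had -0.15 and -1.21 by its brightest probe set. In wild type a further probe set (1437690_x_at) had -1.13, but another (1415825_s_at) had at least 1.70. Wdr5 was at least 1.08 higher in wild-type banding, and Tfrc was 1.02 higher in IL-18 null in the comparison of banded hearts. Of the remaining 10 measured genes, Myc and Pfkfb3 reached the floor only in IL-18 null banded, at 100.6 and 93.5. The other 8, among them Nampt, Klf15 and Pdk4, stayed within 2-fold in all 4 comparisons by their brightest probe sets. In wild-type banding, other probe sets were past 2-fold for Nampt (at least 1.32), Ppp1r3c (at least 2.30) and Lpl (1.20). Rora encodes a receptor that activates Arntl at the elements REV-ERBs occupy. By its brightest probe set Rora was one of the 8, at -0.16 in IL-18 null and 0.19 in wild-type banding. Another Rora probe set (1420583_a_at) read 51.7 in IL-18 null banded, 238.1 in IL-18 null sham, 148.5 in wild-type banded and 46.9 in wild-type sham, high on the same arrays as Dbp, with banding differences of -1.90 and 1.21, both bounds, so the Rora probe sets had the same signs but differed in size.

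**Figure D4:**
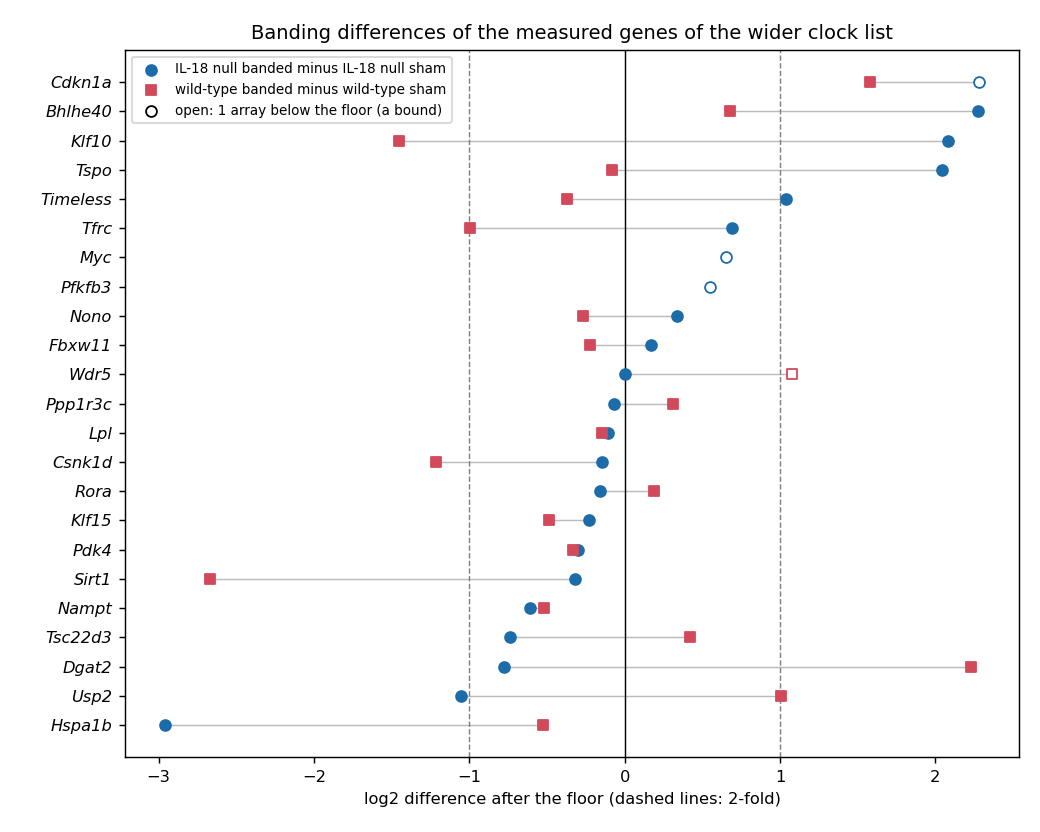
Log2 banding difference (x axis) of the 23 measured genes of the wider list (rows) in IL-18 null (circles) and wild type (squares), with 2-fold dashed, bounds open and grey lines joining the 2 values of a gene. Bhlhe40 and Cdkn1a lie above 0 in both genotypes, Usp2 and Klf10 past 2-fold on opposite sides, and Myc and Pfkfb3 have only an IL-18 null value, a bound.

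Several clock genes also respond to stress hormones, growth signals or heat, so lists of such genes are given beside them. The shares of all genes at least 2-fold higher and lower were the 6.98% and 2.53% given above for IL-18 null banding and 21.7% and 12.8% for wild-type banding. Of 9 glucocorticoid-response genes, 4 were higher and 0 lower in IL-18 null banding, with Mt2 at 3.69 and Sgk1 at 2.02. Klf9, Zbtb16, Tsc22d3 and Pdk4 were below 0 there, within 2-fold, at -0.84, -0.84, -0.74 and -0.30. In wild-type banding 0 of the 9 were higher and 2 lower. Of 8 measured immediate-early genes, 1 was higher and 4 were lower in IL-18 null banding, and 0 higher and 5 lower in wild-type banding. Of the 4 lower in IL-18 null, named here after their values were seen, Jun, Ier2 and Nr4a1 had the signs of Dbp, with banding differences of -1.30, -1.21 and -1.22 in IL-18 null and 0.49, at least 0.86 and 0.20 in wild type. Fos had -1.45 in IL-18 null and -7.19, a bound, in wild type. Atf3, Btg2 and Egr2 had signs opposite to those of Dbp. They were at 2.49, 0.49 and 0.23 in IL-18 null and at -2.29, -2.645 and -3.15 in wild type. Egr1 was below 0 in both genotypes, at -0.36 and -1.78. Hspa1b, an inducible heat shock gene listed also as clock-controlled, read 693.3 in IL-18 null banded, 5379.1 in IL-18 null sham, 146.9 in wild-type banded and 211.8 in wild-type sham, so that IL-18 null sham was high. Of 7 heat shock genes 0 were higher and 3 lower in IL-18 null banding, and of the 6 measured in wild-type banding 1 was higher and 0 lower. Between sham hearts 4 of 7 were higher in IL-18 null and 0 lower, where 16.3% and 6.29% of all genes were. Whether these stimuli took part in the Dbp values was not tested.

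Markers of other cells moved with banding as well. The summed intensity of 7 fibroblast markers was 35178 in IL-18 null banded and 12014 in IL-18 null sham, and 22944 in wild-type banded and 7930 in wild-type sham, all 7 being at or above the floor on each array. That of 7 macrophage markers was 6388 (6 at or above the floor) and 1757 (5) in the IL-18 null arrays, and 3107 (6) and 2165 (4) in the wild-type arrays, banded before sham. Both sums were higher in banded hearts of both genotypes. Single fibroblast genes ranged from -0.61 to 2.96 in wild-type banding and from -0.84 to 3.37 in IL-18 null banding. Single measured macrophage genes ranged from -0.67 to 3.40 in wild-type banding and from 0.21 to 4.71 in IL-18 null banding. The summed intensity of 6 endothelial markers was 2270 (4 at or above the floor) and 3128 (4) in the IL-18 null arrays. In the wild-type arrays it was 3174 (6) and 2398 (4). This sum was lower in banded in IL-18 null and higher in banded in wild type, as Dbp was. Single endothelial genes differed, from -0.80 to 3.24 in wild-type banding and from -0.96 to -0.21 in IL-18 null banding. The sum of 3 neutrophil markers was 993.0 (2) and 499.0 (2) in the IL-18 null arrays, and 80.7 (0) and 895.7 (2) in the wild-type arrays, with signs opposite to those of Dbp. The part of these cells in the Dbp values was not tested. In these whole-ventricle pools, fewer cells of a type and less RNA per cell cannot be told apart.

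By likeness of pattern, the genes closest to Dbp over the 4 arrays were Usp8, Rpl3l, Rtn4ip1, Dguok and Lgals8. Likeness was the root-mean-square distance between log2 profiles centred on their own means, searched over the 3991 genes at or above the floor on all arrays, Dbp included. Usp8 was nearest at 0.029, with intensities of 102.0 in IL-18 null banded, 226.9 in IL-18 null sham, 206.8 in wild-type banded and 94.9 in wild-type sham. Rpl3l, a ribosomal protein gene of muscle, followed at 0.047, and the distance of Lgals8 was 0.095. Each profile has only 4 points, so likeness in it says little.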

How the data were processed

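Groups were taken from the sample titles. The deposited values are intensities on a linear scale, 1 per probe set and array, which the authors computed with GCRMA per the submitters' processing notes; version, settings and later scaling are not given in the sources used here. Of 22690 probe sets, 64 were controls, 20380 had 1 gene in the platform annotation, 691 several and 1555 none; only those with 1 gene entered. Symbols matched the mouse RefSeq table (GRCm38.p6) for 20351, and 0 changed. Values were taken to log2 and set to a floor of log2 6. A probe set entered a comparison if at least 1 of its arrays reached the floor. Differences were counted at 2-fold without a test, and the counting was tested on simulated data. For the wider list a gene's brightest probe set was used. Quantile and cyclic loess normalization used limma 3.58.1 (R 4.3.3); the rest used Python 3.11.15. The number of arrays limits the precision.

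All 10 members were named with every probe set, as were genes of the wider list whose brightest probe set was past 2-fold in any of the 4 comparisons (their other probe sets only in part, chosen after their values were seen), further examples from the lists, and the 5 genes closest to Dbp; the same search for Arntl was left out because Arntl lay below the floor. Members and lists were chosen with earlier results of these data known. Lists of glucocorticoid-response, immediate-early, heat shock, ventricular cardiomyocyte, atrial, fibroblast, macrophage, endothelial, neutrophil and hepatocyte genes were set beside the members. Alternatives were floors of log2 5 and 7 and none, both normalizations, centring on the median, a 1.5-fold threshold, leaving out probe sets with the suffixes _s_at, _x_at and _a_at, and the mean of a gene's probe sets.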

Additional observations from a re-analysis of the deposited data

Results flagged for a closer look

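Dbp stood out because its banding differences were at least 2-fold in opposite directions in the 2 genotypes, lower in IL-18 null banded and higher in wild-type banded; the difference of the responses was -2.33 by the brighter probe set and -2.73, a bound, by the other, with 10.6% and 7.67% of 7366 probe sets at least as far below 0. With a floor of log2 7 the dimmer probe set gave -0.97, also a bound and under 2-fold. Usp2 showed the same pattern by its brightest probe set, with a difference of responses of -2.06. Its other probe set (1417169_at) gave -0.69, under 2-fold. Klf10 showed the opposite pattern, with 3.53. None of these differences between genotypes was tested, since each response rests on 1 array against 1 array.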

How the results depend on the processing

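No direction past 2-fold was reversed for any measured clock probe set under any alternative, and under cyclic loess and median centring each count of member probe sets or wider-list genes was within 1.5 times its main value. With a floor of log2 7, IL-18 null banding and the genotype comparison in banded hearts had 1 member probe set lower each, since the dimmer Dbp probe set (-0.63 and -0.34) lay below that floor in IL-18 null banded. The bounds it gave were also under 2-fold in wild-type banding (0.34), between sham hearts (0.63) and in the difference of responses (-0.97). The wider list then had 1 gene lower between sham hearts and 2 higher in wild-type banding. With a floor of log2 5, 1 member probe set was higher in the difference of responses and 1 between banded hearts. Without a floor, 3 were higher in the difference of responses, 1 was higher between banded hearts, 2 were lower between sham hearts, and wild-type banding had 5 higher and 2 lower. The wider list then had 6 genes lower between banded hearts and 7 higher in wild-type banding. After quantile normalization, 1 member probe set was higher in the difference of responses (Clock 1418659_at) and 1 lower between banded hearts. In wild-type banding 2 were lower (Clock 1418659_at and Nr1d2 1416958_at), and the wider list had 2 genes higher and 5 lower. At 1.5-fold, 1 member probe set was higher in the difference of responses and 2 were lower in wild-type banding. The wider list then had 5 genes lower in IL-18 null banding, 4 lower between sham hearts and 9 higher between banded hearts. Leaving out probe sets with the suffixes _s_at, _x_at and _a_at, which removes the brighter Dbp probe set, left 1 member probe set lower in IL-18 null banding and 1 between banded hearts. The wider list then had 1 gene lower in IL-18 null banding, and 3 higher and 1 lower between banded hearts. With the mean of a gene's probe sets, the wider list had 3 genes higher and 4 lower in IL-18 null banding, 3 higher between banded hearts and 4 higher between sham hearts. Except where the construction of an alternative is named, the cause was not tested. No paired analysis was possible because each group has 1 array and the labels carry no replicate numbers. Signal over background limits the reading of 9 of the 16 probe sets, among them all of Arntl, Per1, Per2, Cry1 and Nr1d1.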
